A study of Mus musculus with 12 samples.

Results

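Interferon-stimulated genes are the genes that cells switch on when an interferon reaches its receptor. The set described here holds 38 such genes, and each of them was found by its symbol among the 55376 gene symbols of the count table. Type I interferons are secreted by cells that sense foreign or misplaced nucleic acid and bind the receptor IFNAR1-IFNAR2, whose kinases JAK1 and TYK2 phosphorylate STAT proteins. The complex ISGF3, which contains STAT2 and IRF9, then binds a DNA element called the interferon-stimulated response element (ISRE) in the promoters of the responding genes. Their products include more of the same signaling chain, sensors of viral RNA and DNA, the ubiquitin-like protein ISG15, and effectors that block viral entry, translation or release. In the brain a response of this kind is known in microglia, astrocytes, endothelial cells and oligodendrocytes, in infection as well as in aging and demyelination.

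The RNA was from oligodendrocytes of C57BL/6 mouse brain at postnatal day 40, sorted by FACS for the surface lipid O1 and against the leukocyte protein CD45, and each sample pooled the cells of 2 brains. There were 4 samples of wild-type mice (WT), 4 of Cnp-Cre Jab1fl/fl mice and 4 of p21-/- Cnp-Cre Jab1fl/fl mice, called double mutants here. In Cnp-Cre Jab1fl/fl mice a Cre recombinase expressed from the oligodendrocyte gene Cnp deletes Jab1, which is listed as Cops5 and encodes a subunit of the COP9 signalosome, in late oligodendrocyte precursors and differentiated oligodendrocytes and also in Schwann cells. Double mutants carry the same Cre and floxed alleles and in addition lack p21CIP1, the cell cycle inhibitor encoded by Cdkn1a, in every cell of the body. Sample values are given below in the order of the replicate numbers, which run from 1 to 4 for Cnp-Cre Jab1fl/fl mice and are 1, 3, 5 and 6 for WT and 1, 2, 3 and 5 for double mutants. A level is a read count divided by the size of its library and scaled by TMM over the 12 samples (CPM, for a library total of 1000000). Total counts per sample were between 61485556 and 153495112, and the spread between samples was taken as the error, as SD with n = 4 per genotype. A gene was called when edgeR's quasi-likelihood test gave an adjusted p below 0.05 over the 17716 genes that reached 1 CPM in 4 or more of the samples.

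The targeted genes and the sorted cell type were examined first. In WT samples Cops5 was at 139, 48.4, 136 and 107 CPM, in Cnp-Cre Jab1fl/fl samples at 86.1, 65.3, 63.8 and 42.5 CPM and in those of double mutants at 47.8, 45.5, 87.5 and 51.2 CPM, and neither mutant differed from WT at the threshold (edgeR adjusted p = 0.349 and 0.424). Cdkn1a was at 89.0, 45.2, 17.0 and 22.2 CPM in WT and at 366, 398, 369 and 603 CPM in Cnp-Cre Jab1fl/fl, and it was counted in the samples labelled p21-/- too, at 85.4, 106, 98.0 and 63.3 CPM, overlapping WT and below every Cnp-Cre Jab1fl/fl sample. These counts cover whole genes, including exons outside a deletion, so they do not check the alleles. Of 12 markers of mature oligodendrocytes, all were present in every sample, and 7 were lower in Cnp-Cre Jab1fl/fl than in WT (edgeR). Astrocyte markers were also high in every sample, with a summed level of 3181 to 12907 CPM over 8 genes. The third double mutant sample (replicate 3) stood apart by its microglia markers, which summed to 17762 CPM over 17 genes against 411 CPM in the lowest double mutant sample, and by the neutrophil genes S100a8 and S100a9 at 49.9 and 32.7 CPM, where the other 11 samples had at most 1.08 CPM of either. In these bulk samples, fewer cells of a type and less RNA per cell cannot be told apart.

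The start regions of the genes were searched for the letters of the ISRE core, which are GAAANNGAAA, or TTTCNNTTTC where the element lies on the other strand. RefSeq gives a window of 250 bases before to 50 bases after the start site (build GRCm38.p6) for 27 of the 38 genes. The core was present in 14 of these 27 genes (51.9%) and in 3.99% of the 27025 genes with a window. With a C required after the core, as in the consensus element, it was present in 40.7% of the 27 genes and in 0.944% of all genes. The letters TTCNNNGAA of the GAS element, which serves the response to interferon-gamma, were in 22.2% of the 27 genes and in 9.55% of all genes. No window was given for Dhx58, Rtp4, Oas2, Usp18, Nlrc5, Parp14, Mx2, Ifi204, Ifi27, Mx1 and Zbp1.

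The stretches below show the core in 8 genes whose expression is described later, with up to 25 bases on each side, read 5′ to 3′ on the strand of the gene and with the cores in capitals. They are shown because they hold pairs, overlapping runs and single copies of the element ahead of genes of the same response.
Ifit1: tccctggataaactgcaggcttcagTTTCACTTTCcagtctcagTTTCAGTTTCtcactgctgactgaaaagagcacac
Ifit3: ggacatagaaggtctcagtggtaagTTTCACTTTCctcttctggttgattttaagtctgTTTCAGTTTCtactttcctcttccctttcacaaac
Ifit3b: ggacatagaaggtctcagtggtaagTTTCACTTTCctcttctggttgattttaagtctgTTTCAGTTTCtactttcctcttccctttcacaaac
Isg15: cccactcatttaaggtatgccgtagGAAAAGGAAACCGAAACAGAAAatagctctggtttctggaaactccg
Bst2: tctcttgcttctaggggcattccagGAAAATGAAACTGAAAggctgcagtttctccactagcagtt
Oas1a: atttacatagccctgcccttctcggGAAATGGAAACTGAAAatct
Rsad2: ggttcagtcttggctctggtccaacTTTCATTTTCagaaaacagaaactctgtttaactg
Ifi207: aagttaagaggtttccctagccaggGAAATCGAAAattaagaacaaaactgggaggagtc

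The Ifit1 stretch is chr19:34640760-34640838 on the plus strand, the Ifit3 stretch is chr19:34583348-34583441 and the Ifit3b stretch is chr19:34607744-34607837, both on the plus strand. On the minus strand lie the stretches of Isg15 (chr4:156200850-156200921), Bst2 (chr8:71537562-71537627), Oas1a (chr5:120907526-120907570), Rsad2 (chr12:26456538-26456597) and Ifi207 (chr1:173741816-173741875). Ifit3 and Ifit3b, neighbors on chromosome 19, are identical over the 94 bases shown. Isg15 has 3 overlapping cores in a run, Bst2 and Oas1a have 2 overlapping cores each, and the 3 IFIT genes shown have 2 cores apart from each other. Counted from the start site, the cores before it began between base -222 (Stat2) and base -14 (Oas1a), and 11 genes had a core there, 6 of them at least 2. A match to these letters is not a measured binding site, and a window without them says nothing of elements elsewhere.

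**Figure D1:**
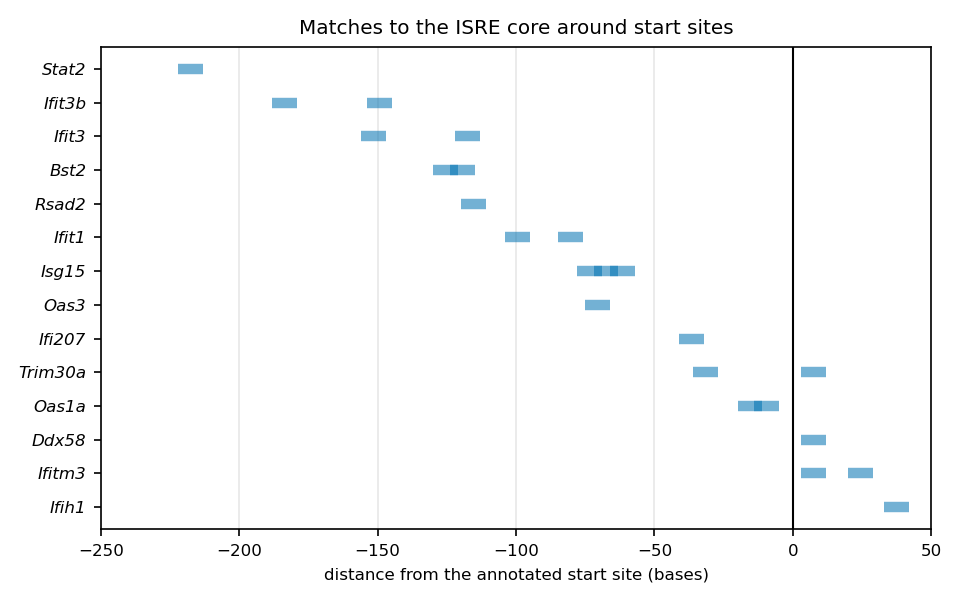
Position of each match to the ISRE core (blue bars, 10 bases long, darker where matches overlap) in the 14 interferon-stimulated genes with a match, on a horizontal axis of bases from the RefSeq start site (black line at 0). Start sites of genes with several windows are drawn on the same row. In 11 genes a match lies before the start site, and in 3 (Ddx58, Ifitm3 and Ifih1) the matches lie only after it.

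Of the 38 genes, 37 passed the filter on low counts. Oas3, which encodes the largest of the oligoadenylate synthetases, did not, with at most 120 counts (1.14 CPM, WT replicate 1) in any sample and 0 counts in 3 samples. Summarized as the mean of log2(CPM + 1) over the 38 genes, the level was 2.71, 3.0, 2.32 and 2.66 in WT samples, 5.46, 4.69, 5.40 and 5.32 in those of Cnp-Cre Jab1fl/fl mice and 3.67, 4.62, 5.46 and 5.40 in those of double mutants. All 8 mutant samples were above all 4 WT samples, and the double mutants spread over a wider range than either other genotype. Per kilobase of exon, so that genes of different length can be compared, Ifi27 had the highest mean level in WT (119.7 ± 26.7 CPM per kb, SD, n = 4), followed by Ifitm3 (75.8 ± 38.1) and Lgals3bp (30.6 ± 11.1), and the ranges of Ifi27 and Ifitm3 overlapped. In Cnp-Cre Jab1fl/fl the same 3 genes were highest, with Ifitm3 at 628 ± 410.3 CPM per kb ahead of Ifi27 at 388 ± 79.6, which again overlapped. In WT 12 of the 37 genes had a mean under 1 CPM per kb, in Cnp-Cre Jab1fl/fl none of them and in double mutants 2.

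**Figure D2:**
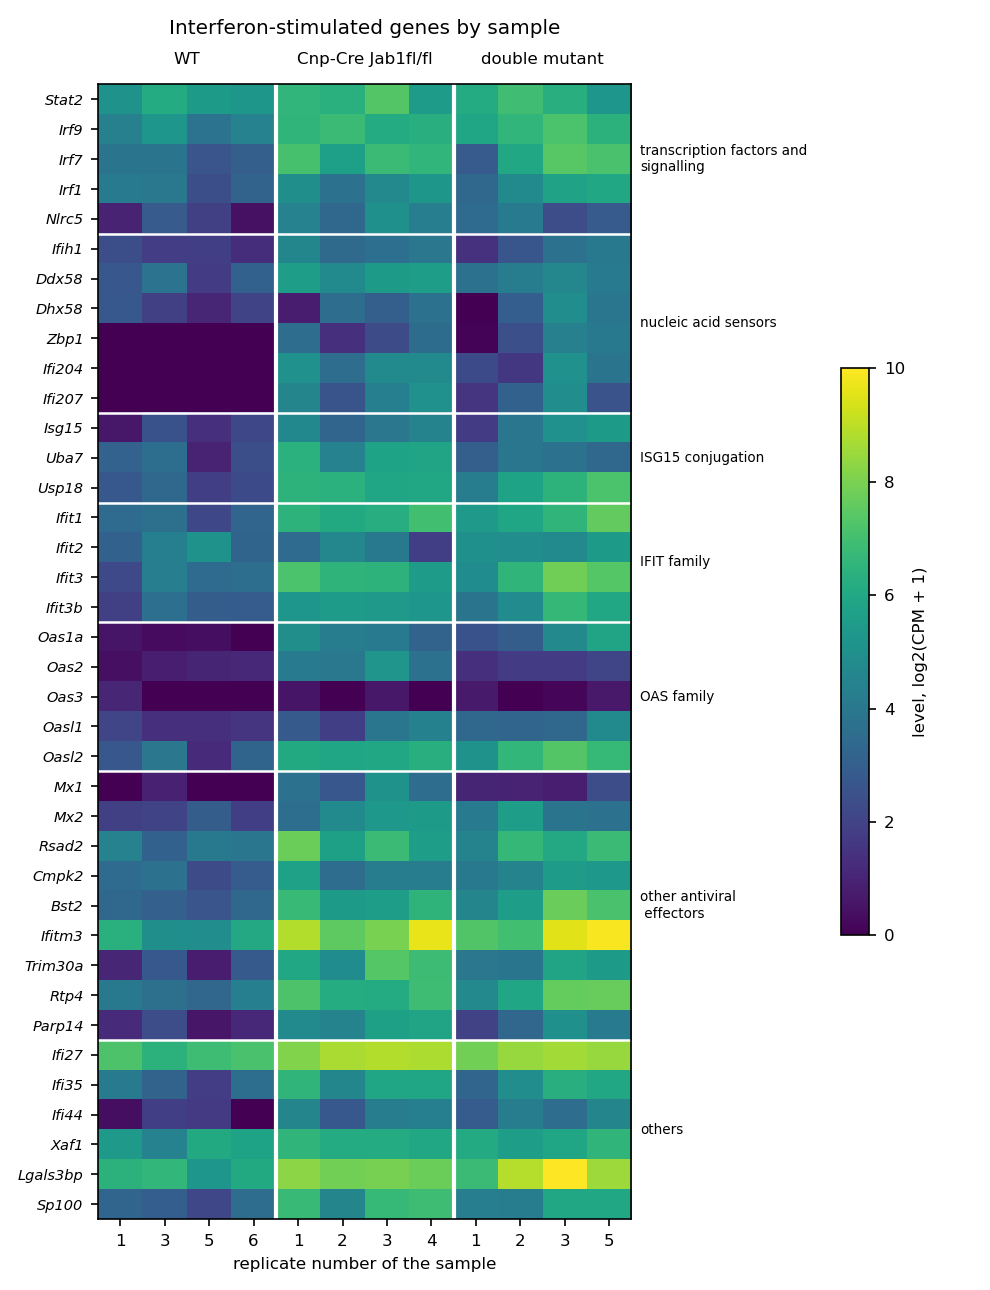
Level of each of the 38 genes (rows, grouped by role) in each of the 12 samples (columns, by genotype and replicate number), as log2(CPM + 1) from dark blue (0) to yellow. Zbp1, Ifi204 and Ifi207 are at 0 in all 4 WT samples, and Oas3 is near 0 throughout. Double mutant replicate 1 is darker than the other double mutant samples in most rows.

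The comparison of Cnp-Cre Jab1fl/fl with WT asked which genes differed between the sorted samples of these genotypes. Of the 37 genes tested, 28 were called higher and 0 lower, where 5.19% of all genes tested were called higher, and 36 had a fold change above 0. Zbp1, Ifi204, Ifi207, Oas1a and Mx1 were below 1 CPM in every WT sample. They passed the filter only through mutant samples, where they were high, and this favors a call higher. Oas2, Ifi44, Parp14, Trim30a, Isg15, Nlrc5 and Uba7 also needed mutant samples to pass, as at least 1 of their WT samples was below 1 CPM. All of these but Ifi44 were called higher. In 30 of the 37, all 4 mutant samples were above all 4 WT samples, which held for 8.73% of all genes tested. The median log2 fold change was 3.12 over the 37 genes and 0.02 over all genes. Setting the 3 genes without WT counts to their lower bound cannot move the median of 3.12, as their bounds lie above it. Before adjustment 35 genes had a p below 0.05, against 22.5% of all genes tested, and DESeq2 called 34 higher, with 9.52% of all genes called higher by DESeq2. Of the 28 calls, 24 held in each of the 8 fits without 1 sample, and those of Ifi35, Ifih1, Isg15 and Nlrc5 were lost in at least 1, while the total stayed between 25 and 29. Over all genes tested, 504 to 1196 were called higher in these fits, against 919 with all 8 samples.

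**Figure D3:**
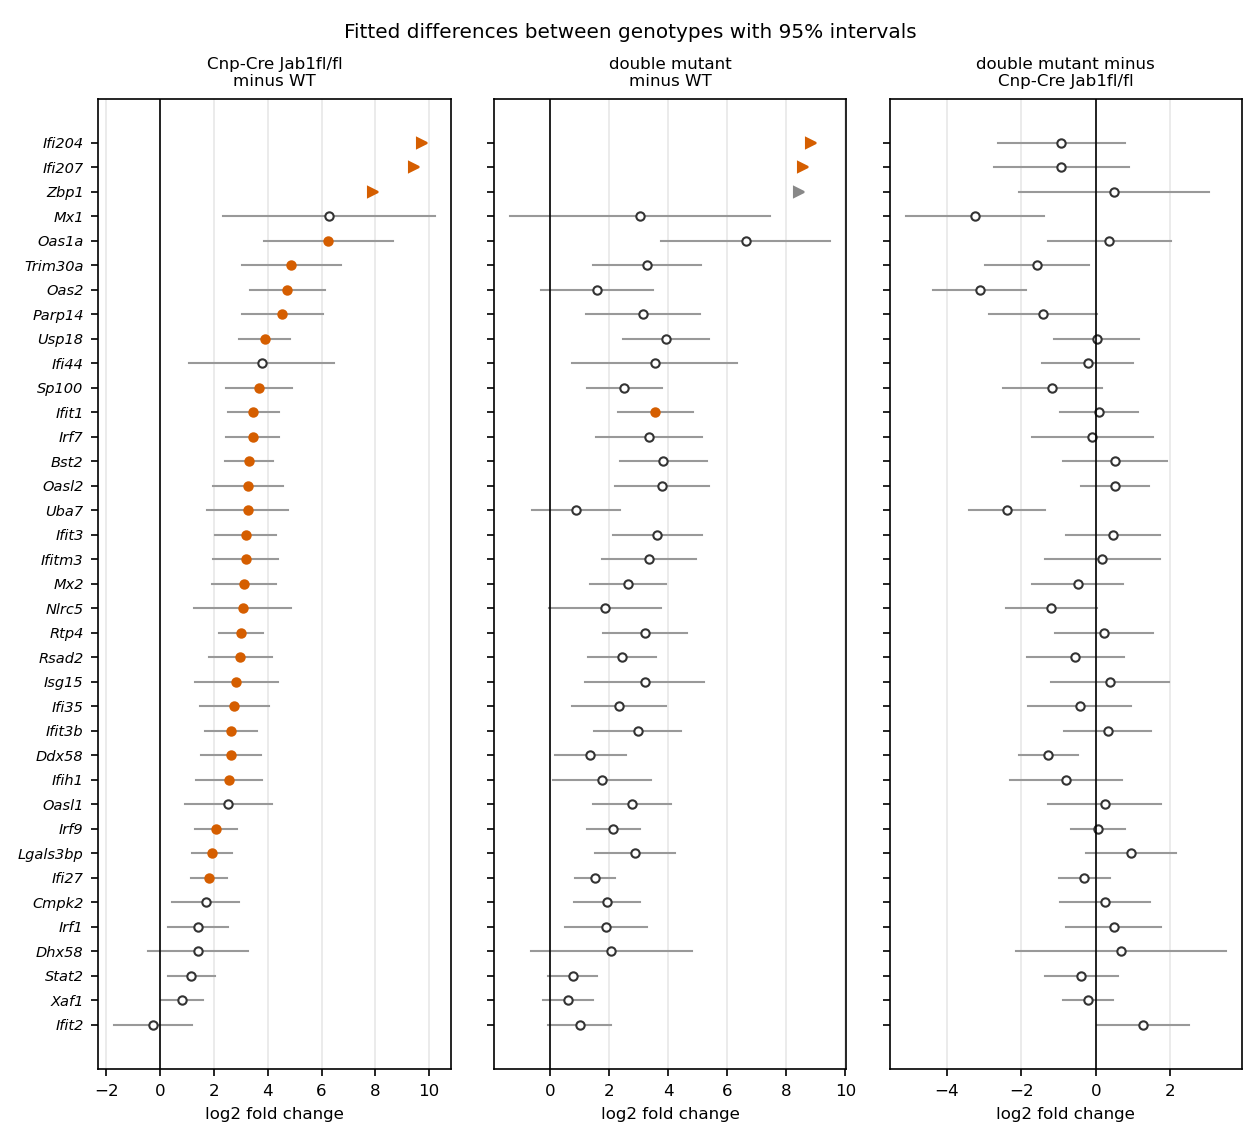
Fitted log2 fold changes (points) with 95% intervals (gray lines) of the 37 genes tested, for Cnp-Cre Jab1fl/fl minus WT, double mutant minus WT and double mutant minus Cnp-Cre Jab1fl/fl. Filled orange points passed an adjusted p of 0.05 and open points did not, and arrowheads stand for the lower bound of genes with 0 counts in every WT sample (orange where called, gray where not). Called are 28 genes in the left panel, 3 in the middle and 0 on the right, where the points lie on either side of 0.

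Among the transcription factors and signaling genes, 3 of 5 were called higher. Irf7, the factor that amplifies interferon production once induced, was at 13.5, 13.5, 5.23 and 7.26 CPM in WT and 135, 49.0, 113 and 94.1 CPM in Cnp-Cre Jab1fl/fl, a log2 fold change of 3.44 (SE 0.45, adjusted p = 0.00213). Irf9, the DNA-binding subunit of ISGF3, was at 19.7, 37.2, 12.9 and 20.5 CPM in WT and 93.1, 110.5, 71.2 and 78.3 CPM in mutants, a log2 fold change of 2.08 (SE 0.35, adjusted p = 0.00695). For both genes the lowest mutant sample was above the highest WT sample. Nlrc5, which activates MHC class I genes, was called with a log2 fold change of 3.07 (adjusted p = 0.0447). Stat2, another subunit of ISGF3, was at 34.5 to 70.4 CPM in WT and 45.0 to 159 CPM in mutants, and Irf1, a factor that responds mainly to interferon-gamma, at 4.27 to 16.4 and 12.7 to 37.9 CPM. The ranges of these 2 genes overlapped, and their log2 fold changes of 1.15 and 1.40 did not pass the threshold (adjusted p = 0.113 and 0.126).

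Of the nucleic acid sensors, 5 of 6 were called higher, and 3 of these had no count in any WT sample. Those 3 passed the filter only through mutant samples, so they could not come out lower than WT. Ifi204, a DNA-binding protein of the PYHIN family, was at 32.8, 11.1, 26.7 and 26.1 CPM in Cnp-Cre Jab1fl/fl. Its mean was at least 851-fold above a floor of 3 counts per WT library (adjusted p = 4.53e-04). The neighboring Ifi207, of the same family, was at 22.6, 5.08, 19.0 and 32.4 CPM, on average at least 697-fold higher (adjusted p = 0.00135). Zbp1, a receptor for Z-form nucleic acid that can start necroptosis, was at 10.9, 1.64, 4.07 and 10.5 CPM, on average at least 239-fold higher (adjusted p = 0.00408). Replicate 2 was the lowest mutant sample for each of these 3 genes. Ddx58 (RIG-I) and Ifih1 (MDA5), which sense viral RNA in the cytosol, had log2 fold changes of 2.63 and 2.56 (adjusted p = 0.0117 and 0.019). Dhx58 (LGP2), their regulator, was at 1.11 to 5.74 CPM in WT and 0.714 to 12.4 CPM in mutants and was not called (adjusted p = 0.376). Ifi204 shares 20% of its 50-base stretches of sequence with Ifi211, Mndal and Ifi207, so part of its counts may belong to these copies.

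All 3 genes of ISG15 conjugation were called higher. Usp18, the protease that removes ISG15 from proteins and restrains signaling at IFNAR2, was at 5.67, 9.18, 2.64 and 3.77 CPM in WT and 88.4, 82.5, 57.5 and 63.8 CPM in Cnp-Cre Jab1fl/fl, a log2 fold change of 3.89 (SE 0.43, adjusted p = 0.00114). The lowest mutant sample was above the highest WT sample by a wide margin. Isg15 itself was at 0.548 to 4.81 CPM in WT and 8.6 to 24.2 CPM in mutants, a log2 fold change of 2.83 (adjusted p = 0.0338). Uba7, the enzyme that activates ISG15, had a log2 fold change of 3.25 (adjusted p = 0.0169).

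The IFIT proteins bind viral RNA that lacks the cap of the host and hinder its translation, and 3 of the 4 genes were called higher. Ifit1 was at 10.3, 12, 3.52 and 8.64 CPM in WT and 87.8, 66.2, 73.3 and 124 CPM in Cnp-Cre Jab1fl/fl, a log2 fold change of 3.47 (SE 0.43, adjusted p = 0.0018). Ifit3 was at 3.57, 18.3, 10.4 and 11.2 CPM in WT and 142, 89.0, 87.2 and 44.2 CPM in mutants (log2 fold change 3.17, SE 0.51, adjusted p = 0.00552). For Ifit3b the WT samples were at 2.75, 11.8, 6.66 and 6.49 CPM and the mutant samples at 37.7, 43.4, 41.4 and 36.9 CPM (log2 fold change 2.65, SE 0.44, adjusted p = 0.00653). The genotypes did not overlap for any of these 3, but Ifit3 and Ifit3b share 51.2% and 45% of their 50-base stretches, so their counts are not separate measurements. Ifit2 was the only one of the 37 genes with a fold change below 0, at 7.67, 19.1, 33.2 and 8.24 CPM in WT and 10.3, 23.8, 15.6 and 2.66 CPM in mutants. Its groups overlapped, and its log2 fold change of -0.27 (95% interval -1.71 to 1.18) turned above 0 without WT replicate 5 (0.26) or without Cnp-Cre Jab1fl/fl replicate 4 (0.05).

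The OAS enzymes make the oligoadenylates that activate RNase L, and 3 of the 4 tested were called higher. Oas2 was at 0.340, 0.776, 1.04 and 1.17 CPM in WT and 17.1, 15.1, 35.8 and 12.3 CPM in Cnp-Cre Jab1fl/fl, a log2 fold change of 4.72 (SE 0.64, adjusted p = 0.00264). Oas1a was at 0 to 0.492 CPM in WT and 8.08 to 29.6 CPM in mutants (adjusted p = 0.00774), and it shares 57.6% of its 50-base stretches with Oas1g and Oas1b. Oasl2 was at 1.27 to 14.7 CPM in WT and 59.3 to 76.4 CPM in mutants, a log2 fold change of 3.27 (adjusted p = 0.00923). Oasl1, which restrains the translation of Irf7, was at 1.54 to 3.24 CPM in WT and 2.59 to 19.9 CPM in mutants and did not pass (log2 fold change 2.53, adjusted p = 0.061).

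Of 9 other antiviral effectors, 7 were called higher. Bst2 (tetherin), which holds budding virus at the cell surface, was at 9.12, 7.46, 5.25 and 9.40 CPM in WT and 106, 42.8, 46.6 and 90.9 CPM in Cnp-Cre Jab1fl/fl, a log2 fold change of 3.31 (SE 0.41, adjusted p = 0.00171). Rtp4, a receptor transporter protein, was at 15.6, 12.1, 8.89 and 18.7 CPM in WT and 148, 71.5, 70.1 and 118 CPM in mutants (log2 fold change 3.0, SE 0.38, adjusted p = 0.00195). Its exons overlap those of Gm45338 over 15.2% of their length. Neither gene had a mutant sample within the WT range.

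Parp14, an ADP-ribosyltransferase, was at 1.34, 4.17, 0.526 and 1.2 CPM in WT and 26.2, 21.5, 50.2 and 56.0 CPM in mutants (log2 fold change 4.54, SE 0.69, adjusted p = 0.00435). Trim30a, a ubiquitin ligase of the TRIM family, was at 1.12, 5.82, 0.673 and 6.17 CPM in WT and 63.1, 28.1, 165 and 114 CPM in mutants (log2 fold change 4.87, SE 0.84, adjusted p = 0.00719). Ifitm3, a membrane protein that blocks fusion of virus with endosomes, was at 81.2, 30.5, 29.1 and 64.9 CPM in WT and 459.8, 184, 255 and 805 CPM in mutants, a log2 fold change of 3.17 (SE 0.55, adjusted p = 0.00724). All 3 were higher in each mutant sample than in any WT sample. Rsad2 (viperin), which makes a nucleotide that ends viral RNA chains, and Mx2, a dynamin-like GTPase, had log2 fold changes of 2.99 and 3.12 (adjusted p = 0.00817 and 0.00754). Cmpk2, the neighbor of Rsad2 that encodes a nucleotide kinase, was at 3.82 to 12.4 CPM in WT and 10.9 to 52.4 CPM in mutants and was not called (adjusted p = 0.102).

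Mx1, which in C57BL/6 mice carries a deletion that leaves no working protein, was at 0, 0.891, 0 and 0 CPM in WT and 12.6, 5.49, 34.7 and 11.1 CPM in Cnp-Cre Jab1fl/fl. Its groups did not overlap, but with 132 counts in a single WT sample and 0 in the others the log2 fold change of 6.27 had an SE of 1.80 and did not pass (adjusted p = 0.0577). Mx1, and Uba7, Ddx58, Oasl2, Isg15 and Mx2 below, were chosen for values in single samples after these had been seen.

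Of the 6 remaining genes, 4 were called higher. Ifi27, the most abundant per kilobase in WT, was at 147, 86.0, 118 and 139 CPM in WT and 277, 423, 456 and 433 CPM in mutants, a log2 fold change of 1.82 (SE 0.31, adjusted p = 0.00679). Lgals3bp, a secreted glycoprotein that binds galectins, was at 84.3, 96.6, 37.2 and 66.8 CPM in WT and 306, 235, 248 and 217 CPM in mutants (log2 fold change 1.94, SE 0.34, adjusted p = 0.0077). Sp100, a protein of PML nuclear bodies, was at 8.55, 7.03, 3.40 and 11 CPM in WT and 107, 22.7, 103 and 117 CPM in mutants (log2 fold change 3.67, SE 0.56, adjusted p = 0.0044). Each was higher in all mutant samples, with Sp100 lowest in mutant replicate 2 and Ifi27 lowest in mutant replicate 1. Ifi35 had a log2 fold change of 2.76 (adjusted p = 0.017), and 17.4% of its exon length overlaps Gm11626 on the other strand, whose reads cannot be told apart without strand. Ifi44, at 0 to 2.64 CPM in WT and 5.79 to 22.5 CPM in mutants, and Xaf1, at 20.5 to 67.0 and 62.5 to 93.7 CPM, were not called (adjusted p = 0.093 and 0.202).

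The other genes of the pathway were taken from a list of 45 genes, of which 32 passed the filter. Of these, 8 were called higher and 0 lower in Cnp-Cre Jab1fl/fl, where 5.19% of all genes tested were called higher. None of the 11 interferon genes listed passed, and 8 of them had 0 counts in every sample. The highest level of any was 0.659 CPM, of Ifnk. It was at 0.178 to 0.659 CPM in Cnp-Cre Jab1fl/fl, at most 0.0135 CPM in WT and at most 0.123 CPM in double mutants. Ifnz and Ifng were counted in WT only, at most at 0.6 and 0.397 CPM. As these genes did not pass the filter, their differences were not tested. A count of 0 allows up to 3 counts per library, which is 0.0284 CPM averaged over the WT libraries. Of 5 receptor chains tested, Ifnar2 (log2 fold change 1.14, adjusted p = 0.0368) and Il10rb (1.64, adjusted p = 0.029) were called, and Ifnar1, the other chain of the type I receptor, was not (0.34, adjusted p = 0.665). The calls also took in 3 of 4 other IRFs, which were Irf2 (1.83), Irf5 (3.12) and Irf8 (5.09), the last a factor of the myeloid lineage and microglia. Of 10 sensing and adaptor genes, Trim25, which ubiquitinates RIG-I, was called (2.17), and of 9 genes of restraint and nucleic acid clearance, Samhd1, a nucleotide hydrolase, was called (1.54). The count of 8 fell to 3 without WT replicate 1, to 4 without WT replicate 5 or without Cnp-Cre Jab1fl/fl replicate 1 or 3, and to 5 without WT replicate 3 or Cnp-Cre Jab1fl/fl replicate 4. Calls over all genes fell too, from 919 higher to between 504 and 626 in these fits.

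Markers of some other cell types were also called higher in Cnp-Cre Jab1fl/fl. Of 17 microglia markers, 15 were called higher in Cnp-Cre Jab1fl/fl, with a summed level of 1115 to 2495 CPM against 148.8 to 337.1 CPM in WT and 411 to 17762 CPM in double mutants. None of these markers was at 0 throughout a genotype. Ptprc, which encodes the CD45 used to deplete leukocytes, was at 0.114, 0, 0.189 and 1.57 CPM in WT, at 56.8, 31.7, 100.2 and 54.5 CPM in Cnp-Cre Jab1fl/fl and at 4.49, 3.21, 97.9 and 10.6 CPM in double mutants. Of 8 endothelial markers, 5 were called higher in Cnp-Cre Jab1fl/fl, at a summed 719.8 to 4853 CPM against 332.7 to 699.4 CPM in WT and 620.5 to 4580.4 CPM in double mutants, and of 7 mural cell markers 4 were called higher. Neutrophil and monocyte markers summed to 1.98 to 16.7 CPM in Cnp-Cre Jab1fl/fl, 0.663 to 2.22 CPM in WT and 2.36 to 136 CPM in double mutants. Lymphocyte markers summed to 2.48 to 16.7 CPM in Cnp-Cre Jab1fl/fl, 1.55 to 5.15 CPM in WT and 3.10 to 13.2 CPM in double mutants. Of the 7 and 10 genes of these lists 2 and 1, respectively, were at 0 in all 4 Cnp-Cre Jab1fl/fl samples. Border macrophage markers summed to 4.22 to 12.8 CPM in Cnp-Cre Jab1fl/fl, 4.08 to 7.88 CPM in WT and 6.86 to 56.5 CPM in double mutants. In Cnp-Cre Jab1fl/fl, 0 of 8 astrocyte and 0 of 8 neuron markers were called, and 1 of 6 markers of oligodendrocyte precursors was called higher.

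Sample by sample, the lists moved together in some samples and not in others. Written as the mean of log2(CPM + 1) over each list, the endothelial markers were at 4.70 to 5.67 in WT, and Cnp-Cre Jab1fl/fl replicate 2 (5.62) and double mutant replicates 1 and 2 (5.57 and 5.64) were within that range, while the interferon-stimulated genes of these 3 samples were at 4.69, 3.67 and 4.62, above the WT maximum of 3.0. The microglia markers were at 2.33 to 3.62 in WT and at 3.65 in double mutant replicate 1, the mutant sample nearest to WT by both lists. Every mutant sample was above the WT range of the microglia list. Double mutant replicates 1 and 2 and Cnp-Cre Jab1fl/fl replicate 2 were the lowest mutant samples in both lists, with microglia markers at 3.65, 4.77 and 5.60. Double mutant replicate 3 had by far the highest microglia list, at 9.08 against 6.08 in replicate 5, and the interferon-stimulated genes of both were close to each other, at 5.46 and 5.40. The part of these other cells in the levels of the interferon-stimulated genes was not tested.

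**Figure D4:**
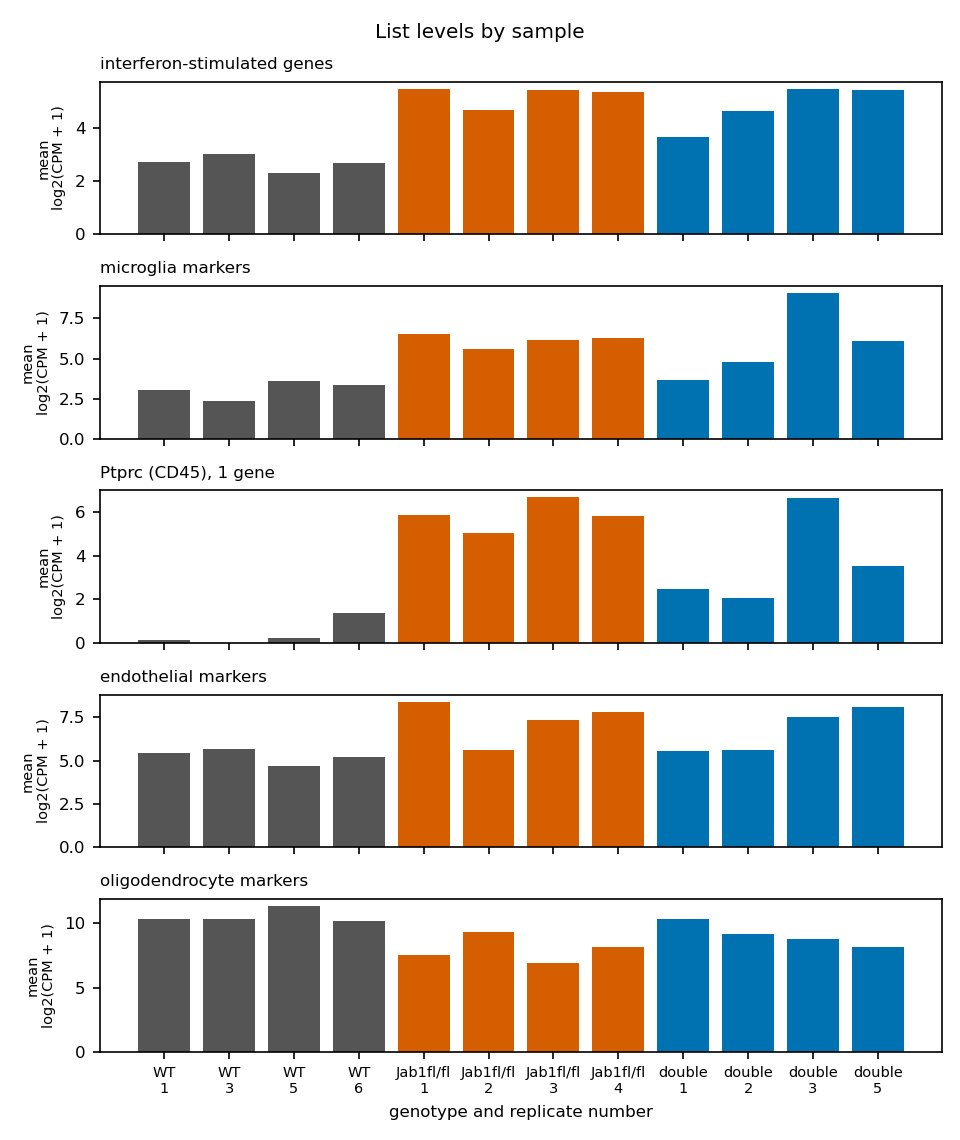
Mean of log2(CPM + 1) over 5 gene lists (rows of bars) in each of the 12 samples, by genotype and replicate number (gray, WT; orange, Cnp-Cre Jab1fl/fl; blue, double mutants). Microglia markers peak at 9.08 in double mutant replicate 3, where the interferon-stimulated genes are at 5.46, and endothelial markers of Cnp-Cre Jab1fl/fl replicate 2 and double mutant replicates 1 and 2 are at the level of WT.

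Double mutants were compared with WT to see which genes still differed when p21 was also absent. All 37 genes had a fold change above 0, and 3 were called higher, where 0.175% of all genes tested were called higher. In 23 of the 37, every double mutant sample was above every WT sample, which held for 4.01% of all genes. Zbp1, Ifi204, Ifi207, Oas1a and Mx1 passed the filter only through mutant samples, which favors values above WT. All of these but Mx1 are among the 23. The median log2 fold change was 2.88 over the 37 genes, against 0.00 over all genes. The lower bounds of the 3 genes without WT counts lie above 2.88, so using them cannot move this median. Before adjustment 29 genes had a p below 0.05, against 12.4% of all genes tested, and DESeq2 called 27 higher (3.74% of all genes). This comparison shares its WT samples with the one above.

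The 3 genes called were Ifi204, Ifi207 and Ifit1. Ifi204 was at 3.81, 2.12, 32.7 and 13.3 CPM in double mutants, on average at least 457-fold above the WT floor (adjusted p = 0.0404). Ifi207 was at 1.91, 7.73, 28.6 and 4.83 CPM, on average at least 380-fold higher (adjusted p = 0.0404). Ifit1 was at 41.2, 58.8, 91.4 and 195 CPM in double mutants, a log2 fold change of 3.56 (SE 0.58, adjusted p = 0.0437). Without double mutant replicate 3, which stood apart by its microglia markers, the lower bounds were 225-fold for Ifi204 and 170-fold for Ifi207. Each of the 4 double mutant samples was above WT for Ifi204, Ifi207 and Ifit1. Ifi204 and Ifi207 passed the filter only through mutant samples, so they could not come out lower than WT. Zbp1, also without WT counts, was at 0.0648, 4.45, 19.2 and 15.6 CPM and at least 347-fold higher on average, and it did not pass (adjusted p = 0.0874). The number of calls rested on single samples, with 19 calls when double mutant replicate 1 was left out and 0 when any other of the 8 samples was, double mutant replicate 3 included. Calls over all genes moved the same way. Without double mutant replicate 1, 202 of all genes tested were called higher, and 1 to 8 in the other such fits, against 31 with all 8 samples.

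Genes that were not called could still have 95% intervals well above 0. Usp18 was at 17.6, 55.4, 87.4 and 144 CPM in double mutants (log2 fold change 3.92, 95% interval 2.46 to 5.37, adjusted p = 0.051). Bst2 was at 22.3, 47.3, 212 and 138 CPM (3.83, 95% interval 2.35 to 5.30, adjusted p = 0.0618). Irf9 was at 57.5, 96.0, 142 and 84.5 CPM (2.14, 95% interval 1.23 to 3.04, adjusted p = 0.0803). These 3 genes were higher in every double mutant sample than in any WT sample.

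Ifit3 was at 28.4, 93.0, 227 and 162 CPM and Ifit3b at 13.4, 27.2, 100.2 and 61.8 CPM in double mutants, with log2 fold changes against WT of 3.63 and 2.96 (adjusted p = 0.0786 and 0.105). Rtp4 was at 25.2, 59.8, 199.9 and 203 CPM (3.22, adjusted p = 0.0874) and Lgals3bp at 111, 471, 1027 and 375 CPM (2.88, adjusted p = 0.0957). Replicate 1 was the lowest and replicate 3 or 5 the highest for each of these genes. Ifitm3 was at 156, 124, 747 and 947 CPM (3.34, adjusted p = 0.101) and Ifi27 at 237, 352, 397 and 348 CPM (1.5, adjusted p = 0.0874), again above WT in each sample.

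Some genes reached the WT range in single double mutant samples. Irf7 was at 6.23, 60.9, 168 and 140.5 CPM, with replicate 1 inside the WT range of 5.23 to 13.5 CPM (log2 fold change 3.33, 95% interval 1.54 to 5.13, adjusted p = 0.134). Parp14 was at 2.90, 8.99, 31.6 and 16.1 CPM, also with replicate 1 inside the WT range (3.12, adjusted p = 0.188). Sp100 was at 18.3, 17.6, 63.3 and 62.3 CPM (2.5, adjusted p = 0.116) and above WT in each sample. Replicate 1 was the lowest of the 4 double mutant samples for 26 of the 37 genes, and 26 of its genes were above every WT sample, against 33 to 35 in the other 3 double mutant samples and 33 to 36 in the Cnp-Cre Jab1fl/fl samples. Such counts by sample were not made over all genes tested, so they do not tell whether replicate 1 was low for these genes in particular.

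The 2 mutants were compared with each other to ask which genes differed between their sorted samples. Of the 37 genes, 0 were called by edgeR (0% of all genes tested, with 885 genes at an unadjusted p below 0.05), 18 had a fold change above 0 and 19 below 0, and the median log2 fold change was -0.10, against 0.02 over all genes. The median 95% interval reached 1.27 to each side on the log2 scale, without adjustment. The interval included 0 for 31 genes, among them Usp18 (0.03, -1.12 to 1.17), Ifit1 (0.09, -0.95 to 1.14), Irf9 (0.07, -0.66 to 0.79) and Irf7 (-0.10, -1.72 to 1.53). At an unadjusted p below 0.05, 5 genes were lower and 1 was higher in double mutants, and 3.25% of all genes were lower at that p. DESeq2 called 3 genes lower (Oas2, Uba7 and Mx1), with 0.378% of all genes called lower.

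Oas2 had the largest difference relative to its error. It was at 1.59, 2.43, 2.34 and 3.25 CPM in double mutants and at 12.3 to 35.8 CPM in Cnp-Cre Jab1fl/fl, a log2 fold change of -3.12 (95% interval -4.36 to -1.88, adjusted p = 0.298). The double mutant samples lay between the other genotypes without overlap, above the WT maximum of 1.17 CPM. Uba7 was at 7.26, 14.3, 12.3 and 9.07 CPM in double mutants against 81.9, 20.8, 54.4 and 56.9 CPM in Cnp-Cre Jab1fl/fl and 7.89, 11.4, 0.989 and 4.28 CPM in WT, a log2 fold change of -2.38 between the mutants (95% interval -3.39 to -1.37, adjusted p = 0.44). Its double mutant samples overlapped WT and not Cnp-Cre Jab1fl/fl.

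Mx1 was at 1.07, 0.970, 0.773 and 4.20 CPM in double mutants, all below the 5.49 to 34.7 CPM of Cnp-Cre Jab1fl/fl (log2 fold change -3.25, 95% interval -5.11 to -1.39, adjusted p = 0.713). Ddx58 was at 12.2, 18.0, 23.6 and 16.3 CPM in double mutants, at 47.3, 26.2, 43.3 and 46.2 CPM in Cnp-Cre Jab1fl/fl and at 5.48, 13, 2.40 and 7.62 CPM in WT (-1.27, 95% interval -2.07 to -0.47, adjusted p = 0.773). With Oas2, Uba7 and Mx1 it made up the 4 genes whose double mutant samples were all below all Cnp-Cre Jab1fl/fl samples, which held for 1.91% of all genes tested. Trim30a was at 14.8, 13.8, 57.2 and 42.7 CPM in double mutants, overlapping Cnp-Cre Jab1fl/fl (-1.58, 95% interval -2.97 to -0.19, adjusted p = 0.961). Ifit2 was at 31.4, 28.9, 26.2 and 42.6 CPM in double mutants, above all 4 Cnp-Cre Jab1fl/fl samples and overlapping WT (1.27, 95% interval 0.03 to 2.51, adjusted p = 0.968).

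**Figure D5:**
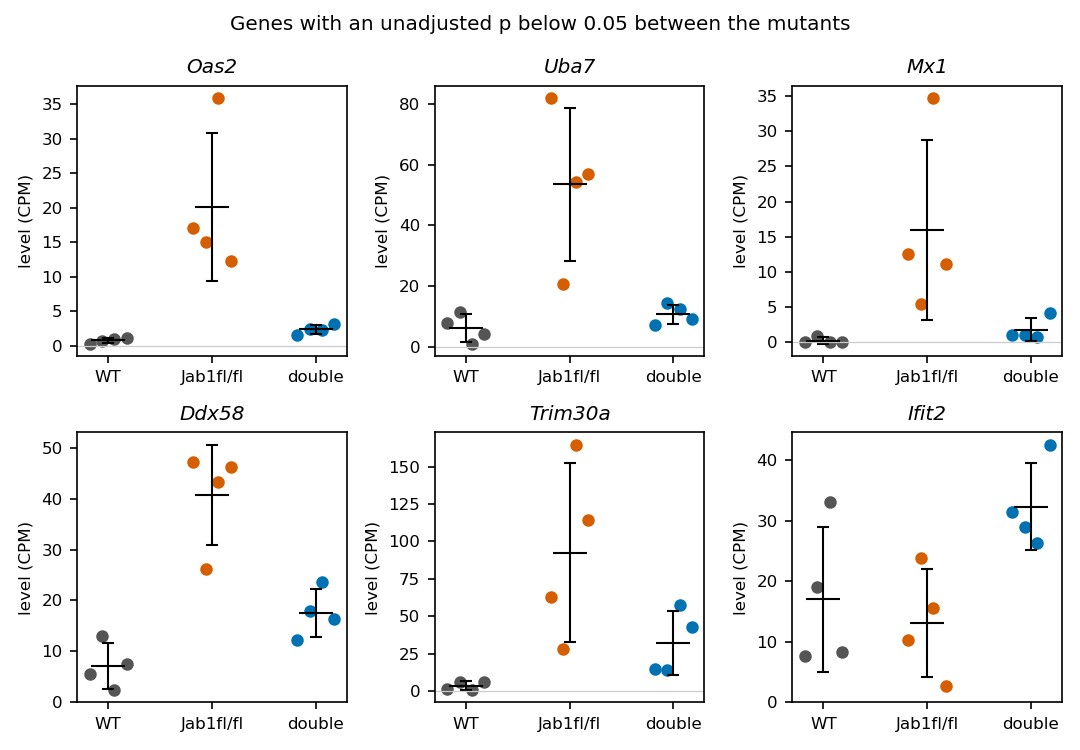
Level in CPM of the 6 genes with an unadjusted p below 0.05 between the mutants, in WT (gray), Cnp-Cre Jab1fl/fl (orange) and double mutants (blue), with a point per sample and the mean and SD (n = 4) in black. Oas2, Uba7, Mx1 and Ddx58 are lower in all double mutant samples than in all Cnp-Cre Jab1fl/fl samples, Trim30a overlaps, and Ifit2 is higher. None passed the adjusted threshold in edgeR.

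Oas2, Uba7 and Mx1 were also set beside markers of other cells. The leukocyte gene Ptprc was at 3.21 to 97.9 CPM in double mutants, with a median of 7.6 CPM. In Cnp-Cre Jab1fl/fl it was at 31.7 to 100.2 CPM, with a median of 55.7 CPM. The part of other cells in the levels of these genes was not tested. In double mutant replicate 3, where microglia markers summed to 17762 CPM, Oas2 was at 2.34 CPM, Uba7 at 12.3 CPM and Mx1 at 0.773 CPM, whereas the least of the Cnp-Cre Jab1fl/fl samples, with microglia markers at 1115 to 2495 CPM, had 12.3, 20.8 and 5.49 CPM of these genes. Oasl2, of the same family as Oas2, was at 33.6, 96.4, 159 and 103 CPM in double mutants against 59.3 to 76.4 CPM in Cnp-Cre Jab1fl/fl (log2 fold change 0.52, 95% interval -0.40 to 1.44). Isg15, the protein that UBA7 activates, was at 2.38, 14.2, 32.5 and 42.5 CPM in double mutants against 8.6 to 24.2 CPM in Cnp-Cre Jab1fl/fl (0.37, 95% interval -1.21 to 1.96). Mx2, next to Mx1 in the genome, was at 16.6, 48.1, 13.5 and 12.2 CPM against 11.3 to 43.2 CPM (-0.48, 95% interval -1.70 to 0.73). For these 3 genes the mutants overlapped, and whether Oas2, Uba7 and Mx1 differ from them was not tested.

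Without double mutant replicate 3, 10 of the 37 genes had a fold change above 0 between the mutants and the median was -0.20, without replicate 5 these were 11 genes and -0.36, and without replicate 1 they were 20 genes and 0.26. Of the 32 other pathway genes tested, 0 were called in edgeR between the mutants or between double mutants and WT, where 14 had an unadjusted p below 0.05 against WT (12.4% of all genes tested) and DESeq2 called 7 (3.74% of all genes called higher).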

How the data were processed

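RNA-Seq counts of 12 samples were used. Per the labels and the study's methods, the authors amplified RNA with SMART-Seq v4, trimmed reads with Trimmomatic 0.32, aligned them with STAR 2.5.3a to GRCm38 and counted them with featureCounts on GENCODE basic genes. The deposited table holds these raw counts, by gene symbol. Strand and multi-mapping settings are not given in the sources used here. Groups came from the genotype labels. CPM values, levels per kilobase (exon union, GENCODE M21) and the list means with a pseudocount of 1 CPM were computed here. Tests were edgeR 4.0.16 quasi-likelihood fits (R 4.3.3) of the 8 samples compared, TMM factors, genes that reached 1 CPM in 4 or more of the 12 samples, Benjamini-Hochberg adjustment over all genes tested. Intervals are 95%, and folds against 0 counts use a floor of 3 counts per library, which covers counting error only, as the reads carry no molecular identifiers.

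The genes, gene lists and marker lists were chosen with earlier results of these data known. Values in every sample are given for up to 16 genes called between Cnp-Cre Jab1fl/fl and WT with the smallest adjusted p, those called in another comparison, those with a fold change below 0, and the 3 highest per kilobase in WT. Alternatives were DESeq2 1.42.0, other size factors, no filter, a filter on mean CPM (10 or more), a fit of all 12 samples, a replicate block, and each sample left out. Samples of a genotype differed by far more than counting noise (lowest chi-square to degrees of freedom, 212). On counts simulated from the means and the spread of the WT samples, the median estimates of the edgeR step were close to the fold changes put in. The wider spread of the double mutants was not simulated. The single-gene result of a listed pathway gene is not reported here.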

Additional observations from a re-analysis of the deposited data

Results flagged for a closer look

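In groups of 4, a gene is listed here when its highest or lowest sample lay far from the nearest other sample relative to the group's whole range on the log2(CPM + 1) scale (Dixon's criterion). Of 108 groups of a gene and a genotype, 6 were listed, and chance lists about 1 in 20, or 5.4. Oasl1 was at 25.7 CPM in double mutant replicate 5 against 8.66 to 9.29 CPM in the others. Mx1 was at 0.891 CPM in WT replicate 3 against 0 in the others, and at 4.2 CPM in double mutant replicate 5 against 0.773 to 1.07 CPM. In Cnp-Cre Jab1fl/fl, Ifi27 was at 277 CPM in replicate 1 against 423 to 456 CPM, Ddx58 at 26.2 CPM in replicate 2 against 43.3 to 47.3 CPM, and Sp100 at 22.7 CPM in replicate 2 against 103 to 117 CPM.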

How the results depend on the processing

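The direction of each called interferon-stimulated gene was kept in the alternatives that tested it, and Ifit2, which was not called, reversed between Cnp-Cre Jab1fl/fl and WT (0.17 with the replicate block, and from -0.71 to 0.26 with a sample left out). With the replicate block 36 of the 37 genes were above 0, so another gene that was not called was below 0 there. Genes not called, other than Ifit2, were not followed singly in this comparison. The other pathway genes were followed as counts, and the markers were not followed across alternatives. For Cnp-Cre Jab1fl/fl against WT the calls were 26 to 34 of the interferon-stimulated genes in the settings other than the replicate block, 25 to 29 with a sample left out. Over all genes tested, 581 to 1687 were called higher in those settings and 504 to 1196 with a sample left out. Other pathway genes called numbered 4 without a filter, with 37 tested, and 3 to 8 with a sample left out. For double mutants against WT, DESeq2 called 27 interferon-stimulated and 7 other pathway genes, the filter on a mean of 10 CPM gave 13 of 25 and 2, a fit of all 12 samples gave 16 and 3, and leaving out a sample gave 0 to 19 and 0 to 3. Of all genes, these settings in turn called higher 663 of 17716, 105 of 10246, 157 of 17716 and 1 to 202 of 17716. DESeq2 called 3 interferon-stimulated genes between the mutants, all lower in double mutants, while the other settings called 0. Why the number of calls depended on the test was not tested. The mean log2 level in WT was 1.95 with a pseudocount of 0.1 CPM, against 2.67 with 1 CPM, since genes at 0 then weigh more.

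Replicate numbers are shared by some samples of different genotypes, and nothing in the labels says that equal numbers mark shared animals or days. The deviations of equally numbered samples from their group means correlated at -0.19 to 0.08, so the numbers were not taken as pairs. With the replicate block, 6 interferon-stimulated genes and 0 other pathway genes were called for Cnp-Cre Jab1fl/fl against WT, and 0 of either for double mutants against WT. Over all 17716 genes tested, these fits called 76 and 8 higher, in that order.

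In the smallest library 1 CPM is 61.5 counts, and the part of depth in the missed thresholds was not tested. Levels at 0 and the folds built on them rest on the floor of 3 counts. With 4 samples per genotype and a wide spread among double mutants, a missed threshold does not show that a gene was equal in the genotypes compared.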
